A study of Mus musculus with 23 samples.

Results

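The comparison described here set leukaemic granulocyte-macrophage progenitors (L-GMPs) of control genotype against knockout progenitors that carried the same leukaemia fusion without having caused leukaemia. Its members were chosen by their labels: 4 arrays of control L-GMPs and 5 arrays of GFP+ knockout progenitors, 9 of the 23 arrays of the series. The study profiled progenitor populations sorted from mouse marrow, with C/EBPα present or deleted and with or without MLL-AF9; C/EBPα is a transcription factor of the granulocyte and monocyte lineages. Each array is an Affymetrix gene array hybridised with RNA of 1 sorted population, and every value below is a deposited log2 expression value of 1 probe set per gene. Levels of different genes cannot be ranked against each other on this scale.

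Donors were Mx.1-Cre- C/EBPa f/f mice (control) or Mx.1-Cre+ C/EBPa f/f mice (knockout), and all had received 3 injections of poly I:C, which switches the Mx.1 promoter on. Their KSLs (Lin- Sca-1+ c-kit+ stem and progenitor cells) were cultured with cytokines that included SCF at 100 ng/ml and IL-3 at 10 ng/ml, infected with a retrovirus that expresses MLL-AF9 and GFP, and transplanted into lethally irradiated mice together with radioprotective congenic marrow. The control L-GMPs came from 2 primary recipients and 2 secondary recipients. The labels of these 4 arrays do not mention a GFP gate, and no label says which secondary recipient received cells of which primary one. The knockout side held GFP+ KSLs (2 arrays) and GFP+ common myeloid progenitors (CMPs, Lin- c-kit+ Sca-1- CD34+ FcγRII/III-; 3 arrays). KSL and CMP arrays 1 came from the same mouse, as did KSL and CMP arrays 2, and CMP array 3 came from another mouse, so the 5 arrays stand for 3 mice. Genotype, leukaemia and the stage at which the cells were sorted change together between the sides and cannot be told apart. Untransplanted cells gave a further pair of groups: 3 arrays of control GMPs and 4 of knockout CMPs, taken 5 days after 3 poly I:C injections and carrying no fusion.

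C/EBPα binds the promoters and enhancers of granule protease, cytokine receptor and other myeloid genes, and progenitors without it accumulate before the GMP stage. MLL-AF9 joins the DNA-targeting end of MLL to a partner that recruits transcription elongation factors, and it drives acute myeloid leukaemia whose leukaemia-initiating cells in mice resemble GMPs. Neutrophil primary granules are filled at the promyelocyte stage with serine proteases and myeloperoxidase, and secondary granules are filled later with lactoferrin, lipocalin and cathelicidin.

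The deleted gene, Cebpa on chromosome 7, was read against the labels. It stood at 7.96 and 7.69 on the primary and at 7.36 and 7.36 on the secondary L-GMP arrays. The KSL arrays held 5.22 and 4.87 and the CMP arrays 4.74, 4.49 and 4.79. No array of one side overlapped the other, and no array went against its label. The sides also differ in sorted stage, so these values cannot show the deletion apart from stage. The difference was 2.74 ± 0.14 (log2 change ± SE, limma on the 9 arrays, Benjamini-Hochberg adjusted p 0.000902), a 6.66-fold difference.

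A gene is said to have changed where its adjusted p was below 0.05. Of 19937 genes, 493 (2.47%) changed: 270 (1.35%) were higher and 223 (1.12%) lower in L-GMPs, 201 and 178 of them by at least 2-fold. The median change was 1.56 among the higher and −1.61 among the lower genes. At an unadjusted p below 0.05 there were 3379 genes. Leaving out 1 array gave from 102 to 468 changed genes: 102 and 113 without secondary L-GMP array 1 or 2, 235 without CMP array 1, 278 without CMP array 3, 282 without KSL array 2 and 289 without primary L-GMP array 2. The arrays of the sides did not overlap for 1542 genes (7.73%), 658 (3.3%) higher and 884 (4.43%) lower, and for 462 of the 493. There were 57 higher and 27 lower genes that passed in all 9 of these fits.

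The arrays of the sides differed in other ways. Xist, the RNA of the inactive X chromosome, was at 10.28 to 11.16 on all 5 progenitor arrays and at 10.97 on primary L-GMP array 2, and at 3.64 to 3.79 on the other 3 L-GMP arrays. The Y-linked gene Eif2s3y stood at 7.76 to 8.69 on those 3 arrays, at the floor of 3 on primary L-GMP array 2, and at 4.57, 5.04 and 4.40 on KSL arrays 1 and 2 and CMP array 2, where Xist was also high. With high Xist as a covariate 40 genes changed (34 higher, 6 lower), among them Hpgd, Hp, Elane, Anxa3, Ctsh, Csf1r, Irf8 and Ctla2a. The other genes below whose calls were rerun this way no longer passed, Cebpa among them (adjusted p 0.0505), and changes that moved by over 1.5 times are given at each gene. Within the fitted groups, high Xist differs only between primary L-GMP array 2 and primary L-GMP array 1. The covariate thus takes its effect from those arrays alone, and that fit cannot separate sex from anything else that sets them apart. Primary L-GMP array 2 and CMP array 3 had the lowest mean correlation with the other arrays of their side (0.944 and 0.926), and 170 genes changed without both. The part of sex, or of these arrays, in each gene below was not tested beyond the values given. The secondary L-GMP arrays were the most alike of all pairs among the 9 (r = 0.9827). Their median absolute deviation from the group mean was 0.094, against 0.143 to 0.176 on the other arrays. Without either of them this pair adds nothing to the estimated spread. A call lost in such a fit therefore does not show that the gene rests on that array.

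Hpgd, which encodes the enzyme that inactivates prostaglandins by oxidising their 15-hydroxyl group, showed the largest rise. Its L-GMP values were 11.69 and 11.67 (primary) and 11.46 and 11.69 (secondary). On the knockout side the KSL arrays held 4.26 and 4.54 and the CMP arrays 4.16, 4.26 and 4.29. Each side was tight, and no array lay anywhere between the sides. The change was 7.31 ± 0.11, or 159-fold (adjusted p 2.2e-06). It was 7.39 ± 0.12 against CMPs alone and 7.23 ± 0.14 against KSLs alone.

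Haptoglobin, Hp, the plasma haemoglobin scavenger that maturing neutrophils store in their granules, stood at 11.43 and 11.33 on the primary and 10.72 and 10.58 on the secondary L-GMP arrays. Progenitor arrays ranged from 3.91 to 4.43. The rise of 6.89 ± 0.15 was 119-fold (adjusted p 1.43e-05). Elane, neutrophil elastase, was at 12.32, 10.87, 11.47 and 11.10 in L-GMPs, at 4.82 and 5.76 in KSLs and at 4.61, 4.98 and 4.39 in CMPs. Both elastase groups were far apart, with a change of 6.46 ± 0.35, or 88.2-fold (adjusted p 0.000902).

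**Figure D1:**
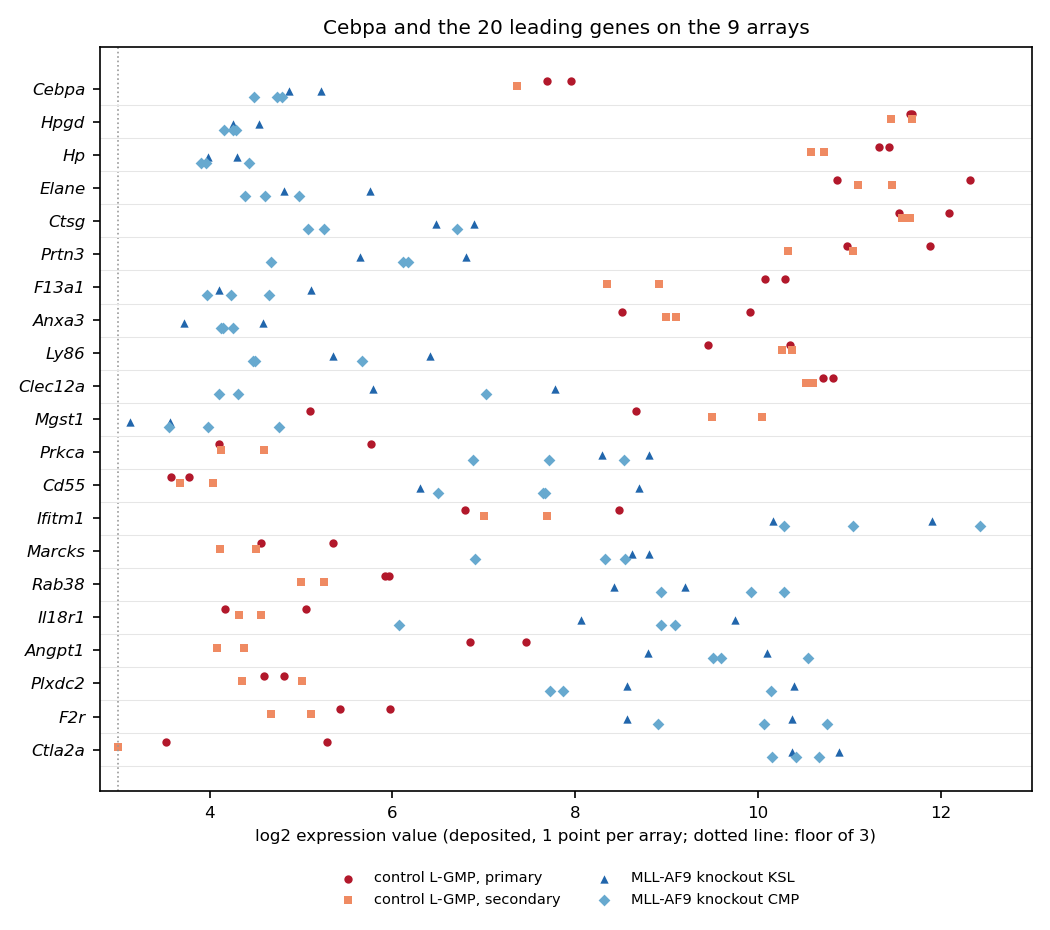
Log2 expression values of Cebpa, the 10 largest rises and the 10 largest falls on the 9 arrays, 1 point per array, with primary and secondary control L-GMPs in red tones and MLL-AF9 knockout KSLs and CMPs in blue tones; the dotted line is the floor of 3. The 20 genes were chosen among those without overlap between the sides; Mgst1 (5.10 on 1 primary array) and Angpt1 (4.08 to 7.46) spread most widely among the L-GMPs here.

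Of the other serine proteases of primary granules, Ctsg and Prtn3 also rose. Ctsg, cathepsin G, had 12.09, 11.54, 11.67 and 11.58 in L-GMPs against 6.89 and 6.48 in KSLs and 6.71, 5.08 and 5.25 in CMPs (5.53 ± 0.36, adjusted p 0.00173). Prtn3, proteinase 3, rose by 5.12 ± 0.44 (adjusted p 0.00468), and Ms4a3, a membrane protein of GMPs, by 3.89 ± 0.62 (adjusted p 0.0326). The protease genes Prss57 (0.97, adjusted p 0.348) and Ctsc (−1.16, adjusted p 0.379) did not pass. Of 11 primary granule genes measured 4 rose and 0 fell, with a median of 1.36 over the list against 0 over all genes. Myeloperoxidase, Mpo, did not pass: L-GMPs held 12.56, 11.66, 11.44 and 9.74, KSLs 8.07 and 9.34, and CMPs 5.76, 9.42 and 7.29 (3.25 ± 0.81, adjusted p 0.103). Its lowest L-GMP array still lay above its highest progenitor array. Ms4a3 lost its call in 7 of 9 fits without 1 array, with an adjusted p of 0.146 without secondary L-GMP array 2, and the list's median ran from 0.49 without primary L-GMP array 1 to 2.36 without primary L-GMP array 2. Without the 2 arrays least like their side 5 of the 11 rose. For Ms4a3 the value was 2.01 (adjusted p 0.362) once Xist was in the model.

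Secondary granule and later neutrophil genes were higher too, 7 of 16 (0 lower; median 1.62). Apart from Hp these were S100a9 (3.18 ± 0.44) and S100a8 (3.00 ± 0.48), the calprotectin subunits, Lcn2 (2.95 ± 0.48), the iron-siderophore binder lipocalin 2, Pglyrp1 (2.46 ± 0.28), a peptidoglycan-binding protein, Camp (2.24 ± 0.20), cathelicidin, and Cd177 (1.57 ± 0.29), a neutrophil surface glycoprotein. Lcn2 varied within the leukaemias: it was at 6.63 and 4.44 on the primary arrays and at 8.99 and 9.60 on the secondary arrays, while progenitors ranged from 4.15 to 5.18. So primary L-GMP array 2 lay among the progenitors. Camp was at 7.53, 6.61, 8.08 and 8.08 in L-GMPs and between 5.21 and 5.58 in progenitors, with no overlap. Lactoferrin, Ltf, a defining gene of secondary granules, stayed between 3.18 and 4.35 on all 9 arrays. S100a8, S100a9 and Lcn2 each lost the call in 5 to 7 of the 9 fits without 1 array (adjusted p up to 0.147, 0.111 and 0.155, in each case without secondary L-GMP array 2), and with 1 value per mouse 3 of the 16 rose. The change of S100a8 was 1.81 and that of Lcn2 1.31 (adjusted p 0.375 and 0.347) with Xist in the model.

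RefSeq promoter sequences (GRCm38.p6) were searched for TTGCNNAA, a pair of C/EBP half-sites, on both strands, because these granule genes are textbook targets of C/EBP factors. The windows hold 250 bases before and 50 after the annotated start. Among the 11 granule genes that changed, the motif was found in the windows of S100a9, Lcn2 and Ms4a3 and not in those of Elane, Ctsg, Prtn3, S100a8, Pglyrp1, Camp and Cd177, and Hp had no entry. Of all 32851 promoter windows 10.8% held it, and at least 1 window held it for 12.2% of the 27025 genes of the table, 11.3% of the 15613 tested genes with an entry, 15.1% of 205 higher genes and 10.9% of 174 lower genes. A match is a run of letters and not a shown binding site. The 250 bases before the start are given for the 2 genes with a match there, 5′ to 3′ on the gene's strand, with the match in capitals; S100a9 lies on the minus strand at chr3:90695722-90695971 with the match beginning at base −236 from the start, and Lcn2 on the minus strand at chr2:32387740-32387989 with the match beginning at base −216.
S100a9: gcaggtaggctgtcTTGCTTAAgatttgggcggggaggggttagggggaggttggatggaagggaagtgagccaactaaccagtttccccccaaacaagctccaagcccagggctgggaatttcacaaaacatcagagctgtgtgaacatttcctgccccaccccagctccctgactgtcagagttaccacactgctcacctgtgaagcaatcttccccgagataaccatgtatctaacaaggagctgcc
Lcn2: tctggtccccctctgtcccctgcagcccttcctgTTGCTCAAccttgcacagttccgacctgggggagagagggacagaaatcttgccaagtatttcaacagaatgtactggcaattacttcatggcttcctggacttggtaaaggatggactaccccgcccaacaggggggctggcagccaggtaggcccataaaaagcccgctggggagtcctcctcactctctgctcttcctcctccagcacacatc

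Monocyte and macrophage genes made up the next group: 7 of 17 rose, 0 fell and the median was 2.08. F13a1, a chain of the fibrin-linking coagulation factor XIII, was at 10.30 and 10.08 on the primary arrays, 8.92 and 8.35 on the secondary arrays and 3.97 to 5.11 in progenitors (4.97 ± 0.27, adjusted p 0.000902). Ly86, the MD-1 partner of a Toll-like receptor homologue, stood at 9.45, 10.35, 10.37 and 10.26 in L-GMPs, at 5.35 and 6.41 in KSLs and at 4.47, 5.67 and 4.50 in CMPs (4.73 ± 0.37). Ms4a6c, a membrane protein of monocytes, rose by 3.95 ± 0.45, and Mpeg1, a pore-forming protein of phagocytes, by 3.28 ± 0.30. Cd14 (2.78 ± 0.30), a lipopolysaccharide receptor, Adgre1 (2.19 ± 0.29), the F4/80 antigen, and the β-glucan receptor Clec7a (1.52 ± 0.19) also passed. The fractalkine receptor Cx3cr1 did not (0.82 ± 0.28, adjusted p 0.213). Ms4a6c, Cd14 and Adgre1 lost the call in 2 to 4 of 9 fits without 1 array, with adjusted p of 0.0692 and 0.0964 for Ms4a6c and Adgre1 without secondary L-GMP array 1 and of 0.0601 for Cd14 without secondary L-GMP array 2. The change of Cd14 was 1.66 (adjusted p 0.0986) with Xist in the model. Whether the sort held a minority of more mature monocytes was not tested; in bulk RNA, more cells of a type and more RNA per cell cannot be told apart.

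The phagocyte oxidase makes superoxide, and 3 of its 5 measured subunits rose: Cybb (3.59 ± 0.52), its catalytic subunit gp91phox, Ncf1 (1.45 ± 0.26) and Ncf4 (1.28 ± 0.16). Cybb was at 8.29, 6.09, 8.37 and 8.61 in L-GMPs and between 3.51 and 5.04 in progenitors, the lowest L-GMP value again being that of primary array 2. Cyba, the partner of Cybb, was 1.38 ± 0.35 higher without passing (adjusted p 0.106). None of the 3 passed in every fit without 1 array: the adjusted p reached 0.121 for Cybb and 0.0833 for Ncf4 without secondary L-GMP array 2 and 0.171 for Ncf1 without secondary L-GMP array 1. The change of Cybb was 1.93 (adjusted p 0.297) with Xist in the model. With 1 value per mouse 0 of the 5 passed, and without the 2 arrays least like their side 1 did.

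Among 12 granulocyte-monocyte transcription factors 5 rose and 2 fell. Beside Cebpa these were its relatives Cebpd (2.82 ± 0.51) and Cebpe (2.26 ± 0.15), the latter a driver of terminal neutrophil maturation, then Irf8 (2.19 ± 0.37), which directs progenitors to monocytes and dendritic cells, and Spi1 (1.70 ± 0.27), which encodes PU.1. Cebpe was at 7.77, 8.08, 7.32 and 7.21 in L-GMPs and at 4.95 to 5.47 in progenitors. Irf8 was highest on primary L-GMP array 2, at 8.53, with 6.69 to 7.17 on the other L-GMP arrays and 4.88 to 5.30 on the progenitor arrays. The genes that fell were Egr1 (−1.62 ± 0.19, adjusted p 0.014), an early growth response factor, and Cebpg (−0.92 ± 0.16, adjusted p 0.04), a C/EBP member without an activation domain. Gfi1, a repressor needed for neutrophil formation, was 0.84 ± 0.19 higher and did not pass (adjusted p 0.0871). Cebpd and Irf8 lost the call in 7 of 9 fits without 1 array, to an adjusted p of 0.181 and 0.157 without secondary L-GMP array 1. The change of Cebpd was 0.97 (adjusted p 0.408) and that of Irf8 3.52 (adjusted p 0.0372) with Xist in the model. Without the 2 arrays least like their side 3 of the 12 rose and 0 fell.

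Of the receptors for myeloid cytokines 3 of 11 rose: Csf1r (2.29 ± 0.21), the M-CSF receptor, Il6ra (2.02 ± 0.20), the IL-6 receptor α chain, and Csf3r (1.92 ± 0.21), the G-CSF receptor. Csf1r was at 6.87, 7.80, 7.11 and 6.96 in L-GMPs and at 4.65 to 5.14 in progenitors, without overlap. Csf2ra, the ligand-specific chain of the GM-CSF receptor, was 1.65 ± 0.34 higher with an adjusted p of 0.0651. Il6ra and Csf3r each lost the call in 1 of 9 fits, without secondary L-GMP array 1 (adjusted p 0.051 and 0.0599).

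The other leading rises were Anxa3 (4.96 ± 0.32), an annexin, Clec12a (4.70 ± 0.71), an inhibitory lectin receptor of myeloid cells, and Mgst1 (4.60 ± 0.72), a membrane-bound glutathione transferase. Anxa3 stood at 9.91, 8.51, 8.99 and 9.10 in L-GMPs and between 3.72 and 4.58 in progenitors. Clec12a was uniform in L-GMPs (10.53 to 10.82) and uneven in progenitors, with 5.79 and 7.78 in KSLs and 4.31, 7.03 and 4.10 in CMPs. Mgst1 was uneven in L-GMPs: primary array 2 held 5.10, next to the 4.76 of CMP array 3, and the other L-GMP arrays 8.67 to 10.04. Clec12a and Mgst1 each lost the call in 7 of the 9 fits without 1 array (adjusted p up to 0.131 and 0.142, without secondary L-GMP array 2). For Mgst1 the value was 1.93 (adjusted p 0.26) once Xist was in the model.

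On the other side Ctla2a, an inhibitor of cathepsin L-like proteases, showed the largest fall. It was at 3.52 and 5.28 on the primary L-GMP arrays and at the floor of 3.00 on both secondary arrays. KSLs held 10.89 and 10.37 and CMPs 10.67, 10.16 and 10.42. The change was −6.82 ± 0.36 (113-fold, adjusted p 0.000902), and the floor hides how low the secondary L-GMPs went. Its paralogue Ctla2b fell by 3.26 ± 0.54, and probes for such similar genes can take up each other's signal.

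Cathepsins themselves moved both ways. Of 11 cathepsins and cathepsin inhibitors 4 rose and 3 fell (median 0.85). Lysosomal cathepsins H (Ctsh, 3.29 ± 0.18), Z (Ctsz, 1.63 ± 0.20) and B (Ctsb, 1.31 ± 0.18) were higher, as was the stefin Stfa3 (2.05 ± 0.23). Ctsh was at 7.28 to 7.87 in L-GMPs and 4.07 to 4.40 in progenitors. Cathepsin W, Ctsw, known from cytotoxic lymphocytes, fell by 2.60 ± 0.37, from 6.44 to 8.56 in progenitors to 4.37 to 4.65 in L-GMPs. Ctla2b and Ctsw lost the call in 7 and 6 of the 9 fits, with adjusted p up to 0.158 and 0.111 without secondary L-GMP array 2, and without the 2 arrays least like their side 1 rose and 1 fell. The change of Ctla2b was −1.44 (adjusted p 0.366) with Xist in the model.

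F2r, the thrombin receptor PAR1, ranked next among the falls, at 5.43, 5.97, 5.11 and 4.67 in L-GMPs, 10.37 and 8.57 in KSLs and 10.76, 8.91 and 10.07 in CMPs (−4.40 ± 0.51, adjusted p 0.012). Plxdc2, a plexin-domain membrane protein, fell by 4.34 ± 0.62, and Angpt1, the ligand of the Tie2 receptor on stem cells and endothelium, by 3.97 ± 0.36. Angpt1 differed within the leukaemias: 7.46 and 6.85 on the primary and 4.08 and 4.38 on the secondary arrays, with 8.80 to 10.55 in progenitors. Il18r1 (−3.95 ± 0.73), a chain of the IL-18 receptor, Rab38 (−3.74 ± 0.31), a small GTPase of lysosome-related organelles, Marcks (−3.69 ± 0.38), a membrane protein that protein kinase C phosphorylates, and Prkca (−3.48 ± 0.47), that kinase's α isoform, also fell. Rab38 stood at 5.00 to 5.96 in L-GMPs and 8.43 to 10.29 in progenitors. Ifitm1 (−3.65 ± 0.62), an interferon-inducible membrane protein, and Cd55 (−3.62 ± 0.53), which protects cells from complement, completed the 10. Angpt1 and Rab38 kept their call without any 1 array. Il18r1 and Ifitm1 lost it in 8 of 9 fits, Cd55 in 6, Prkca and Plxdc2 in 5, F2r in 2 and Marcks in 1, with the highest adjusted p (0.18, 0.158, 0.122, 0.1, 0.114, 0.0684 and 0.059) without secondary L-GMP array 1, or array 2 for Cd55 and F2r; with 1 value per mouse the adjusted p of Angpt1 was 0.104. For Ifitm1 the value was −2.39 (adjusted p 0.392) once Xist was in the model.

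Of 23 stem cell genes 4 fell (Angpt1, Ifitm1, Ifitm3 and Mycn) and 0 rose, with a median of −0.19. Of these Mycn (−2.27 ± 0.25) is the N-Myc factor of stem and progenitor cells, and Ifitm3 (−3.11 ± 0.56) belongs with Ifitm1 to the interferon-inducible membrane proteins. The transcription factor genes Mecom (−2.18 ± 1.28, adjusted p 0.457) and Hlf (−0.53 ± 0.42, adjusted p 0.581) and the protein C receptor Procr, at 4.63 to 5.01 on all 9 arrays, did not pass. Ifitm3 lost its call in all 9 fits without 1 array and Mycn in 2 (adjusted p up to 0.151 and 0.0671, without secondary L-GMP array 1). The change of Ifitm3 was −1.83 (adjusted p 0.427) with Xist in the model. Without the 2 arrays least like their side 2 of the 23 fell and 1 rose.

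Erythroid genes were lower in L-GMPs, 3 of 18 past the test and 0 higher, with a median of −1.69. They were Car2 (−3.44 ± 0.57), carbonic anhydrase 2, Gata1 (−2.20 ± 0.34), the master factor of red cells and platelets, and Gfi1b (−1.74 ± 0.28), its corepressor partner. Gata1 was at 5.03, 6.21, 5.73 and 4.92 in L-GMPs, at 7.41 and 7.30 in KSLs and at 7.56, 7.86 and 8.55 in CMPs. Car1 and platelet factor 4 (Pf4) had larger differences and did not pass (−4.43 ± 0.96 and −4.06 ± 0.83, adjusted p 0.075 and 0.0656), since Car1 ran from 8.04 to 12.08 and Pf4 from 6.25 to 11.24 within the progenitors. Car2, Gata1 and Gfi1b lost the call in 7 to 8 of 9 fits (adjusted p up to 0.148, 0.131 and 0.153 without secondary L-GMP array 2). The change of Gata1 was −1.32 (adjusted p 0.344) with Xist in the model. No gene of 18 passed without both arrays of knockout mouse 2 and 7 did without both arrays of mouse 1.

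Genes that answer growth factor signals were lower where they changed. Ccnd2, cyclin D2, stood at 7.02, 7.38, 7.13 and 7.12 in L-GMPs and at 9.58 to 10.39 in progenitors (−2.88 ± 0.19, adjusted p 0.00163). Pim1 and Pim2, survival kinases induced by cytokine receptors through STAT5, fell by 1.78 ± 0.32 and 1.46 ± 0.25, and with Ccnd2 these were 3 of 14 STAT5 response genes (median −1.0). Egr1 and Junb (−1.26 ± 0.22), an AP-1 subunit, were 2 of 17 immediate early genes to pass (median −0.65). No gene rose in either list. Pim1, Pim2 and Junb lost the call in 7, 8 and 9 of 9 fits, to adjusted p of 0.177, 0.158 and 0.169 without secondary L-GMP array 2. For Pim2 the value was −0.71 (adjusted p 0.409) once Xist was in the model.

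In the eicosanoid list, Hpgd rose and the prostaglandin E2 receptor gene Ptger4 (−2.24 ± 0.29) fell, out of 12. Ptger4 stood at 4.63 to 5.45 in L-GMPs and 6.82 to 7.88 in progenitors. Alox5, the 5-lipoxygenase of leukotriene synthesis, was −2.67 ± 1.26 (adjusted p 0.353). Among 14 homing and adhesion genes 3 rose and 0 fell: Emb (2.75 ± 0.42), embigin, Itgam (2.21 ± 0.28), the CD11b integrin chain, and Cxcr4 (1.44 ± 0.23), the receptor that holds cells in marrow. These 4 calls were lost in 3 to 8 of 9 fits (adjusted p up to 0.0745 for Ptger4 and 0.133 for Cxcr4 without secondary L-GMP array 1, 0.138 for Emb and 0.083 for Itgam without array 2), and with 1 value per mouse 0 of the 14 homing genes passed. The change of Itgam was 1.43 (adjusted p 0.25) with Xist in the model.

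Both sides carry MLL-AF9. Of 20 known MLL-fusion target genes 0 passed, a share near the 2.47% of all genes, and 6 had an unadjusted p below 0.05; the median was 0.46. The arrays of the sides did not overlap for 3 of the 20: Hoxa9 (1.20 ± 0.56, adjusted p 0.352), Msi2 (−1.58 ± 0.31, adjusted p 0.0585) and Zfp521 (−1.47 ± 0.33, adjusted p 0.0837). Meis1 was at 0.57 ± 1.12 (adjusted p 0.845). Mitosis genes (0 of 15 passed, median 0.28), DNA replication genes (0 of 18, median 0.01), ribosome biogenesis genes (0 of 17, median −0.18), interferon response genes (0 of 15, median −0.12) and glycolysis genes (0 of 11, median 0.12) lay near the median of all genes. The references differed for mitosis genes, with a median of 0.52 against KSLs alone and −0.05 against CMPs alone (0 of 15 passed in each).

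Markers of other cells were read on every array. Stromal and endothelial genes had list means of 5.17 to 5.43 in L-GMPs and 5.00 to 5.21 in progenitors, with Cdh5 at 4.06 to 4.63 and Cxcl12 at 4.17 to 4.56, and 0 of 13 passed. Mature lymphocyte genes had list means of 4.81 to 4.99 and 4.89 to 5.74 (0 of 14 passed). Probe sets listed under several antigen-receptor symbols, chosen after their values were seen, were lower in L-GMPs in a fit of all probe sets: T cell receptor γ variable segments had changes of −6.49 ± 0.28 and −4.42 ± 0.45 and a probe set whose symbols include immunoglobulin κ segments −3.69 ± 0.23 (adjusted p 0.00211, 0.0167 and 0.00379). The part of lymphoid RNA in the other results was not tested. Lymphoid progenitor genes (0 of 14), megakaryocyte genes (0 of 13) and eosinophil genes (0 of 7) had medians of the change of −0.87, −0.88 and 0.47. Of 14 dendritic and MHC class II genes only Cd74, the invariant chain, fell (−2.08 ± 0.35), and of 13 mast cell and basophil genes only Kit (−2.46 ± 0.44); both lost the call in 8 of 9 fits, to an adjusted p of 0.158 without secondary L-GMP array 2. The Fcγ receptor gene Fcgr2b was 2.01 ± 0.35 higher in L-GMPs. FcγRII/III was part of the CMP gate, and c-kit, the protein of Kit, was part of the KSL and CMP gates. The changes of Fcgr2b and Kit are therefore given as a description.

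**Figure D2:**
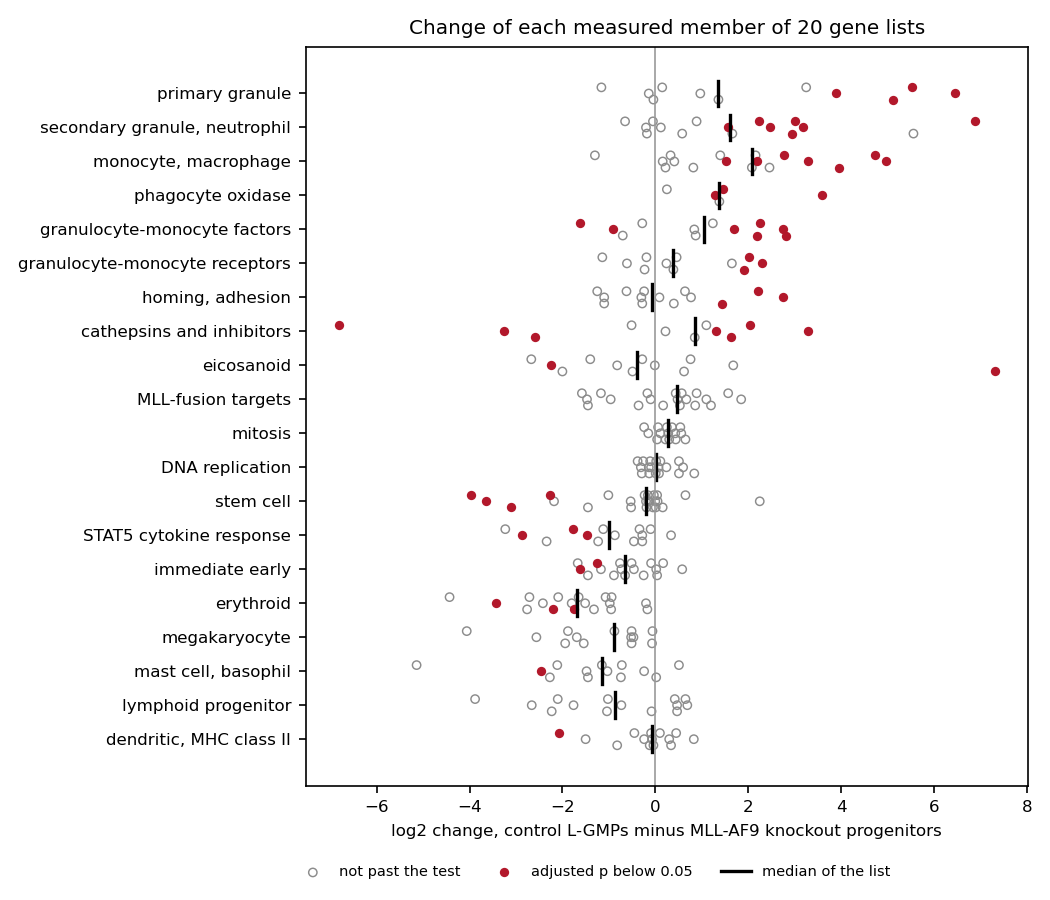
Log2 change (control L-GMPs minus MLL-AF9 knockout progenitors) of each measured member of 20 gene lists, filled where the adjusted p was below 0.05, with the median of each list as a bar. Granule, monocyte and oxidase lists lie to the right (medians 1.36, 1.62, 2.08 and 1.38), erythroid genes to the left (−1.69), and the medians of MLL-fusion targets and mitosis genes are 0.46 and 0.28.

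The knockout side was not uniform. Between its sorted populations 1 gene changed, CMPs against KSLs (0.00502% of genes; 1359 at an unadjusted p below 0.05), an immunoglobulin κ variable segment, at a mean of 9.17 in KSLs and 3.29 in CMPs (−5.88 ± 0.24, adjusted p 0.00178). That count was 3 and 11 without KSL array 1 or 2 and 2 without CMP array 2. Between the mice, 533 genes (2.67%) differed by at least 2-fold between mouse 2 and mouse 1 in the same direction in KSLs and in CMPs, 180 higher in mouse 2 and 353 in mouse 1. For KSLs against CMPs in the same direction in both mice that number was 53 (0.266%). Both are counts without a test, chosen after the values were seen. Deviations from the group mean correlated at 0.45 between KSL and CMP arrays 1 and at 0.26 between KSL and CMP arrays 2.

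Genes of mast cells and basophils were high in mouse 1. The labels do not say whether these non-leukaemic mice received the IL-3 and GM-CSF vectors given to knockout recipients. Any part of such vectors in these levels was not tested. Fcer1a, the IgE receptor α chain, was at 11.95 in its KSLs and 10.63 in its CMPs, at 5.41 and 6.43 in mouse 2 and at 8.70 in the CMPs of mouse 3. Mcpt8, a basophil protease, was at 10.72 and 10.74 in mouse 1, 6.73 and 5.20 in mouse 2 and 4.08 in mouse 3. Hdc, which makes histamine, was at 9.63 and 10.10, 5.16 and 5.01, and 5.43 in the same order. The mast cell and basophil list had means of 9.08 and 8.39 on the arrays of mouse 1, 5.55 to 5.73 on the other 3 progenitor arrays and 5.19 to 5.84 in L-GMPs. Csf2rb2, a β chain of the IL-3 receptor, went with it, at 10.93 and 10.20 in mouse 1 and 4.74 to 6.68 in the others. The L-GMPs did not lie with the lower mice in every such gene: Hdc was at 8.07 and 8.02 on the primary arrays, between mouse 1 and the others.

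Other genes were low in mouse 1. Mecom, a stem cell transcription factor gene also called Evi1, was at 8.46 and 7.95 in mouse 2 and 8.60 in mouse 3, but at 4.29 and 3.65 in mouse 1 and 3.93 to 5.36 in L-GMPs. The fusion target genes Meis1 and Eya1 were low in mouse 1 alone: Meis1 at 6.04 and 4.84 against 8.76 to 9.79 in mice 2 and 3, and Eya1 at 6.08 and 4.59 against 8.86 to 9.04. In L-GMPs Meis1 was at 8.69, 8.30, 8.09 and 7.80, above mouse 1 and below mice 2 and 3. Eya1 was at 9.00, 9.41, 9.55 and 9.53 there, close to or above mice 2 and 3. The erythroid gene Car1 was at 12.08 and 11.97 in mouse 2, 10.96 in mouse 3 and 8.04 and 9.33 in mouse 1. Whether the mice differed in disease stage, insertion sites or cell mixture was not tested.

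**Figure D3:**
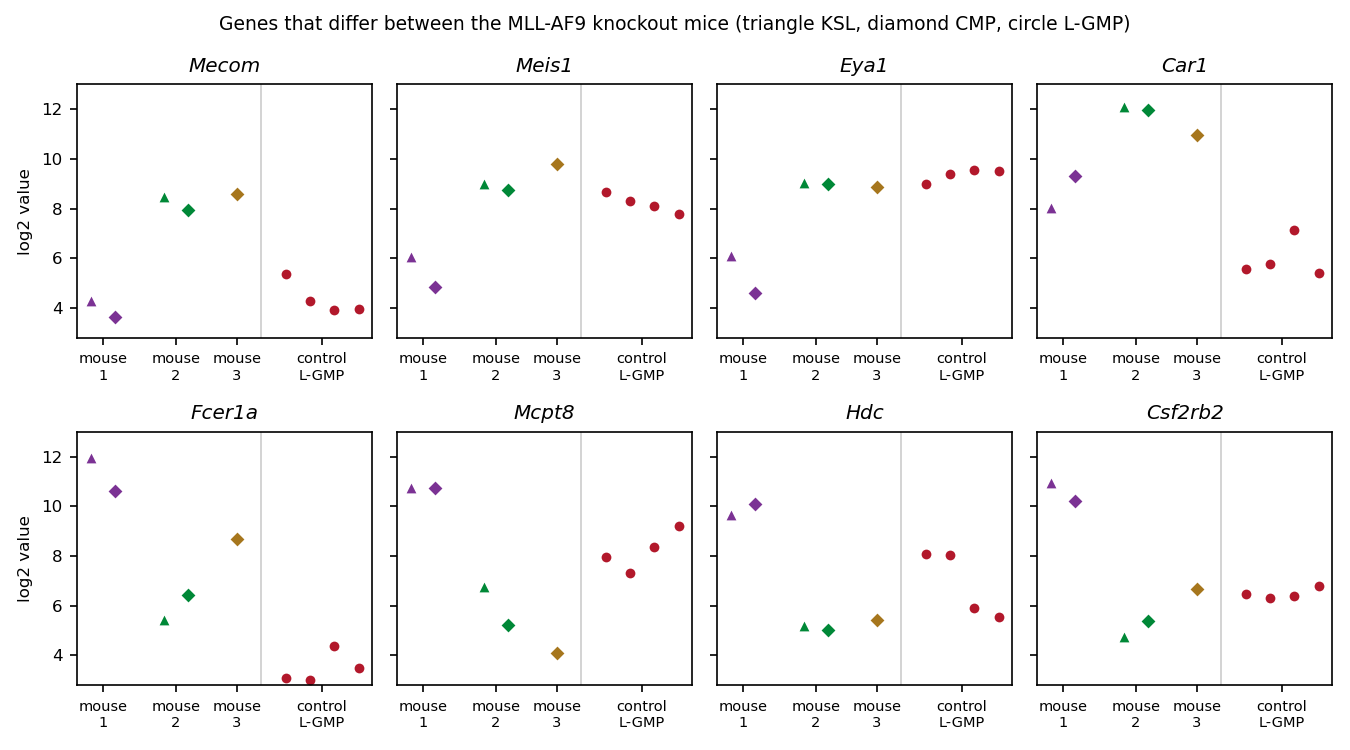
Log2 values of 8 genes on the KSL (triangles) and CMP (diamonds) arrays of the 3 MLL-AF9 knockout mice and on the 4 control L-GMP arrays (circles). Both arrays of mouse 1 are lower than those of mice 2 and 3 for Mecom, Meis1, Eya1 and Car1 and higher for Fcer1a, Mcpt8, Hdc and Csf2rb2.

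Taking the references one at a time, 381 genes (1.91%) changed against CMPs (210 higher, 1.05%, and 171 lower, 0.858%) and 129 (0.647%) against KSLs (80 higher, 0.401%, and 49 lower, 0.246%). Of the 270 genes higher in the joint comparison 184 also passed against CMPs and 80 against KSLs, and all 270 had the same sign in both. Of the 223 lower genes 137 and 43 passed, and 222 had the same sign in both, the exception being the immunoglobulin segment above. Clec12a was 5.52 ± 0.80 higher than in CMPs and 3.88 ± 0.91 higher than in KSLs, where it did not pass (adjusted p 0.148). Leaving out 1 array moved these counts to between 62 and 355 against CMPs (62 without secondary L-GMP array 2, 64 without array 1, 91 and 101 without CMP array 1 or 3, 251 without primary L-GMP array 2) and to between 22 and 133 against KSLs (22 and 23 without secondary L-GMP array 2 or 1, 59 and 60 without KSL array 2 or 1, 83 without CMP array 1). These comparisons share their L-GMP arrays.

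Within the leukaemias 3 genes (0.015%) changed between primary and secondary recipients, with 1918 at an unadjusted p below 0.05. Apoc1, an apolipoprotein of macrophages and liver, was at 4.35 and 4.23 on the primary and 8.33 and 8.27 on the secondary arrays (4.01 ± 0.20, adjusted p 0.00735). On the progenitor arrays Apoc1 stood at 3.60 to 4.70. The other genes to pass, Lgr4 and Lce3f, stayed between 3.00 and 4.15 on these 4 arrays, near the floor. Lcn2 (3.76 ± 0.71, adjusted p 0.254), Angpt1 (−2.92 ± 0.53, adjusted p 0.244) and F13a1 (−1.56 ± 0.40, adjusted p 0.349) did not pass. Apoc1 lost its call without secondary L-GMP array 2 (adjusted p 0.144), and the count was 22 and 10 without primary array 1 or 2, 0 without secondary array 2, and 1 without CMP array 1 or 3.

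Control GMPs were set against knockout CMPs, both without the fusion, on arrays that the first comparison does not use. The reference of that first comparison held KSLs as well as CMPs. Arrays with and without the fusion also differ in culture, infection and transplantation, and the L-GMPs are leukaemic. Changes given below as with the fusion belong to those groups, and the fusion's own part cannot be told apart. Xist was at 10.07 to 10.23 on the 3 GMP arrays and at 3.60 to 4.14 on 3 of the 4 knockout CMP arrays, the opposite of the first comparison, and its part in this contrast and in the difference tested below was not tested. There 1773 genes (8.89%) changed, 940 (4.71%) higher and 833 (4.18%) lower in GMPs. The count lay between 1023 and 1410 without 1 array (1023, 1054 and 1161 without GMP array 3, 2 or 1 and 1181 without knockout CMP array 1). Of the 270 genes higher in control L-GMPs 198 (73.3%) were also higher in GMPs, 21.1% of the 940. Of the 223 lower genes 143 (64.1%) were also lower, 17.2% of the 833. Across 19937 genes, which are not independent, the changes correlated with r = 0.605 (Spearman 0.39). The genes that changed in opposite directions were Fnbp1l (2.20 ± 0.35 with the fusion, −1.92 ± 0.32 without), Elob (−0.52 ± 0.08 and 0.29 ± 0.07) and Polr2l (−0.94 ± 0.11 and 0.43 ± 0.09), named after their values were seen.

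Granule and monocyte genes were part of what was shared. Without the fusion Elane rose by 6.12 ± 0.53, Hp by 5.51 ± 0.33, F13a1 by 5.22 ± 0.30 and Cebpa by 2.21 ± 0.17, and Ctla2a fell by 4.67 ± 0.33 and F2r by 4.25 ± 0.44. Of the lists, 6 of 11 primary granule, 7 of 16 secondary granule and 15 of 17 monocyte genes were higher in GMPs, and 9 of 18 erythroid genes were lower. Untransplanted GMPs also had 4 of 7 eosinophil genes higher and 11 of 17 immediate early genes lower. With the fusion these counts were 0 and 2, in a comparison that passed 2.47% of all genes against 8.89% without it and whose reference also held KSLs. The counts are therefore not on an equal footing. In the test of the difference described next, 3 of 7 eosinophil and 2 of 17 immediate early genes passed.

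The difference between both changes was tested in 1 model of 16 arrays, taking control L-GMPs against MLL-AF9 CMPs and control GMPs against knockout CMPs. It was past the threshold for 565 genes (2.83%), 215 (1.08%) with a more positive and 350 (1.76%) with a more negative change with the fusion. Hpgd led it. Control GMPs held a mean of 4.51 ± 0.16 (SD, n = 3) and knockout CMPs 4.72 ± 0.34 (SD, n = 4), a change of −0.22 ± 0.16, so the difference was 7.61 ± 0.23 (adjusted p 1.54e-08). Ccnd2 fell with the fusion and was −0.35 ± 0.17 without it, a difference of −2.51 ± 0.25 (adjusted p 0.000616). Rab38 (−2.61 ± 0.37, adjusted p 0.00576) and Ctla2a (−2.04 ± 0.46, adjusted p 0.0396) fell further with the fusion, and Egr1 fell less (1.53 ± 0.31). Ifitm3 had a difference of −3.66 ± 0.73. Its change was 0.31 ± 0.52 without the fusion and −3.35 ± 0.63 against MLL-AF9 CMPs, where it did not pass (adjusted p 0.056). For Elane (0.66 ± 0.75, adjusted p 0.696), Hp (1.41 ± 0.46, adjusted p 0.129) and F13a1 (−0.09 ± 0.42, adjusted p 0.94) the difference did not pass, which does not show that the changes are alike. Ctla2a lost this call in 11 of 16 fits without 1 array (adjusted p up to 0.109, without GMP array 3). The count of 565 ran from 168 (without GMP array 3) to 1401 (without CMP array 2); it was 191 and 320 without GMP array 2 or 1, 250, 252, 272 and 367 without knockout CMP array 3, 1, 2 or 4, 369 without secondary L-GMP array 2, and 1258, 998 and 996 without primary L-GMP array 1 or KSL array 1 or 2.

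Other genes led this test. Fnbp1l, a membrane-bending regulator of actin, was at 8.92, 10.20, 9.19 and 9.51 in L-GMPs and 6.86, 7.10 and 8.06 in MLL-AF9 CMPs, with means of 6.88 in GMPs and 8.80 in knockout CMPs (difference 4.03 ± 0.45). Igf2bp3, an RNA-binding protein of fetal and leukaemic cells, was at 7.77, 6.11, 8.40 and 8.97 in L-GMPs and 4.91 to 5.02 in MLL-AF9 CMPs, with means of 4.65 and 4.86 without the fusion (difference 3.05 ± 0.44). Sh2d1b1, a signalling adaptor (3.36 ± 0.74), and Olfm4, a neutrophil granule glycoprotein (2.67 ± 0.56), were next among the positive differences. The largest negative differences were those of Prg2, the eosinophil major basic protein (−3.98 ± 0.40), the chemokine receptor Ccr2 (−3.83 ± 0.89), the mitochondrial kinase Ak4 (−3.83 ± 0.77), the HGF receptor Met (−3.76 ± 0.26) and the basophil protease Prss34 (−3.74 ± 0.55). Met was at a mean of 7.67 in GMPs and 3.59 in knockout CMPs and at 3.16 to 4.22 on the 9 arrays of the first comparison. Prss34 likewise lay between 4.42 and 4.98 on those 9 arrays, with 8.57 in GMPs. Sh2d1b1 and Ccr2 lost this call in 11, Olfm4 in 8 and Ak4 in 5 of 16 fits without 1 array (adjusted p up to 0.0861, 0.0775 and 0.0732 without GMP array 2 for Sh2d1b1, Olfm4 and Ak4, and 0.101 without GMP array 1 for Ccr2).

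**Figure D4:**
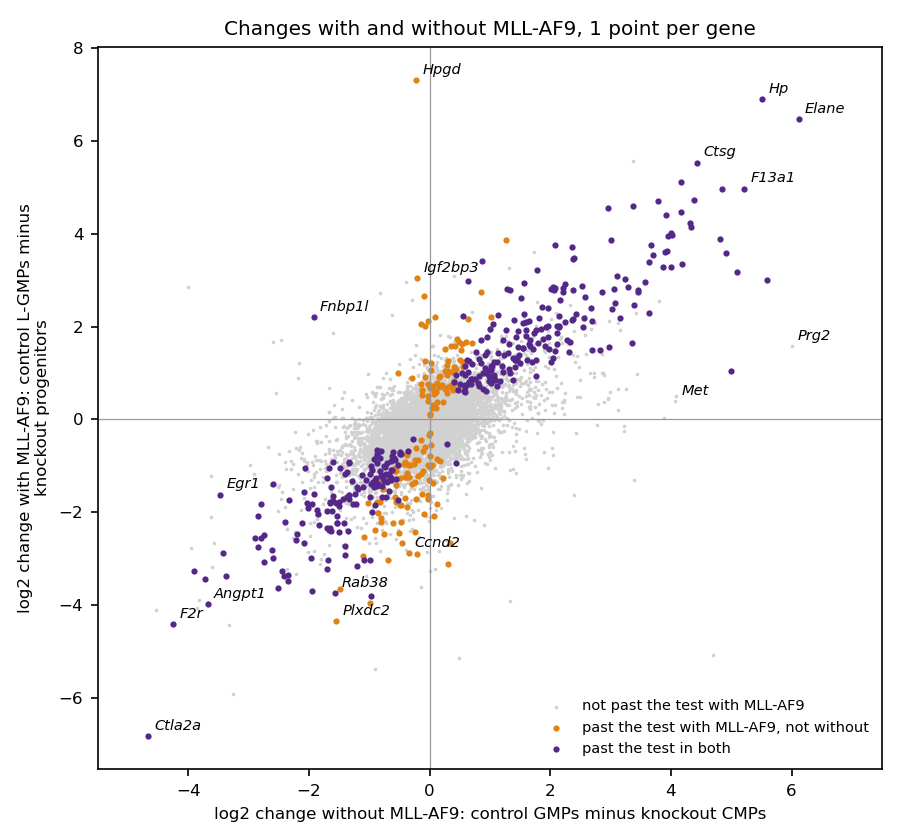
Log2 change with MLL-AF9 (control L-GMPs minus knockout progenitors, vertical) against the change without it (control GMPs minus knockout CMPs, horizontal), 1 point per gene, coloured by which tests it passed. Elane, Hp, Ctsg and F13a1 have large rises on both axes and Ctla2a and F2r large falls on both, while Hpgd is at 7.31 on the vertical and −0.22 on the horizontal axis.

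The knockout leukaemia of the series, 3 L-GMP arrays of primary and secondary recipients after IL-3 and GM-CSF vectors, shares the knockout genotype with the progenitors. Its levels are given beside the others without a test, since a contrast with the same progenitors would share arrays. Mean levels there were 11.11 for Hpgd, 10.97 for Hp, 11.39 for Elane and 3.17 for Ctla2a, beside 11.63, 11.01 and 11.44 for the first 3 in control L-GMPs, while Cebpa stood at 4.79. Over the 270 higher genes the median level was 7.52 (primary) and 7.73 (secondary) in L-GMPs of control genotype, 7.58 and 7.75 in those of knockout genotype, 7.56 in control GMPs, 6.76 in control CMPs, 5.62 in knockout CMPs and 5.56 and 5.48 in MLL-AF9 KSLs and CMPs. Over the 223 lower genes it was 6.04 and 5.79, 6.37 and 6.35, 6.61, 7.19, 7.79, and 7.81 and 7.84 in the same order. The genes were chosen on the control L-GMPs and the MLL-AF9 progenitors, so only the other groups carry information here. Car2, among the 223 lower genes, went the other way, at a mean of 9.93 in the knockout leukaemia, near or above the progenitors. The erythroid list that holds Car2 did not: its means were 5.71 to 5.73 there, 5.47 to 5.93 in control L-GMPs and 6.48 to 8.35 in progenitors. Mecom, which did not pass in the first comparison, was at a mean of 8.84 in the knockout leukaemia. That was near mice 2 and 3, while mouse 1 held 4.29 and 3.65.

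**Figure D5:**
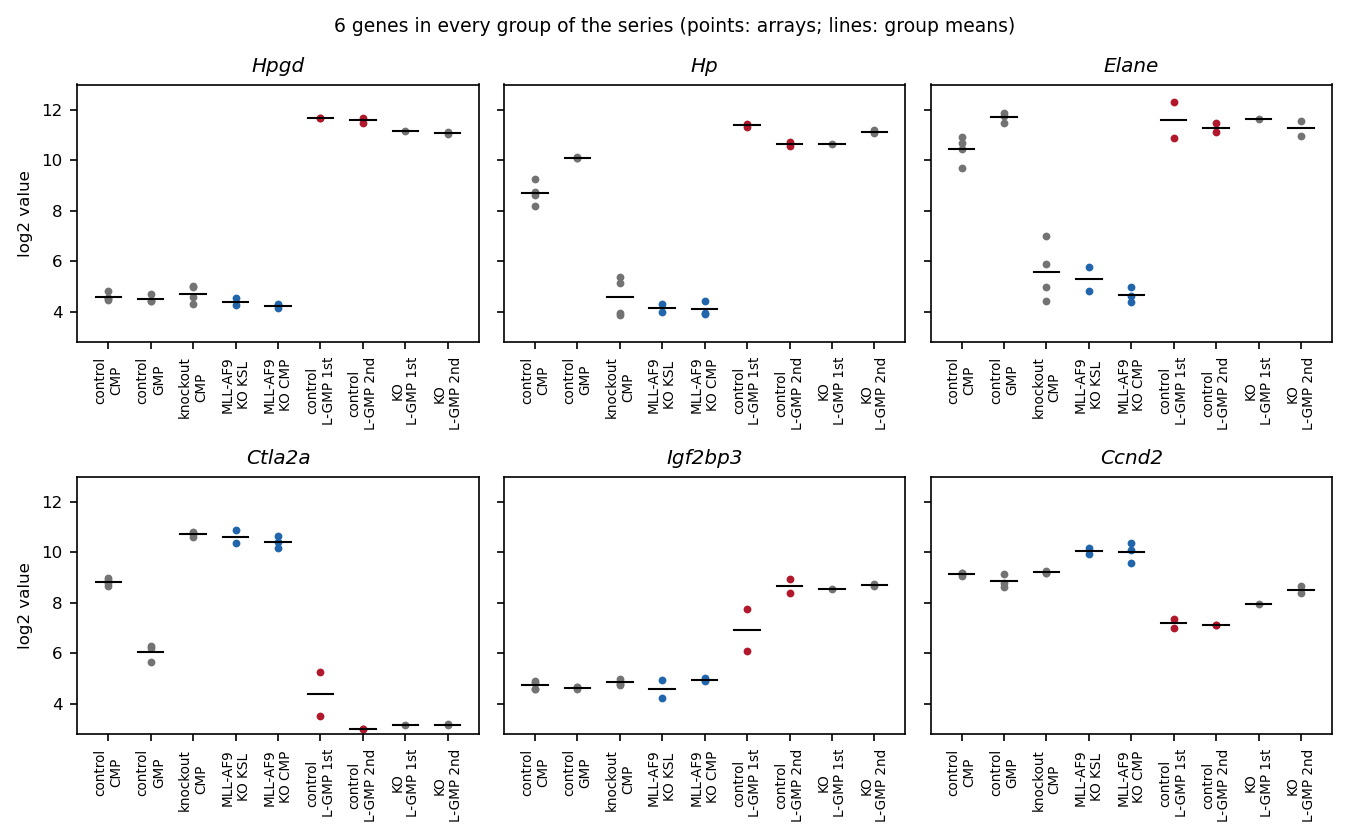
Log2 values of 6 genes in all 9 groups of the series, 1 point per array with the group mean as a line; control L-GMPs are red and MLL-AF9 knockout progenitors blue. Hpgd is at 11.05 or above on the 7 L-GMP arrays and at 5.01 or below on the other 16, and Igf2bp3 is at 6.11 or above on the former and 5.02 or below on the latter.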

How the data were processed

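The deposited log2 values were made by the authors with RMA, per the submitters' processing notes (version not given in the sources used here), on Affymetrix arrays hybridised with RNA extracted with Trizol and amplified by a whole-transcriptome kit, per the labels' protocols. RMA equalises the arrays' distributions, which hides any shift common to most genes, and the values have a floor of exactly 3, which 2952 to 3379 of 34760 probe sets reached per array. Of the probe sets 21640 carry 1 gene symbol, 1321 several and 11799 none in the platform annotation, and 21553 matched RefSeq by Entrez ID. A gene is its probe set with the highest mean over the 23 arrays, giving 19937 genes.

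The 4 groups of the 9 arrays were fitted with limma 3.58.1 in R 4.3.3 (group means, trended eBayes, no filter, Benjamini-Hochberg adjustment over all genes, threshold 0.05). L-GMPs were compared with the equal-weight mean of KSLs and CMPs. The test of the difference with and without the fusion used 16 arrays in 6 groups. The script was tested on simulated data. KSL and CMP arrays 1 share a mouse, as do arrays 2, per the labels, and their deviations correlate at 0.45 and 0.26. Primary and secondary L-GMPs of the same number share only a number (−0.046). The labels do not say how independent the L-GMP recipients are, so p-values reflect only how far these arrays vary, which may be technical. The number of arrays limits the precision.

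The genes and lists were chosen with earlier results of these data known. Named were Cebpa, the 10 largest rises and falls whose arrays did not overlap (leaving out predicted genes, small RNAs, receptor and antigen-receptor segments, Y-linked genes and Xist), up to 4 changed members per list, the markers, and up to 5 rises and falls in other comparisons; further list members were named after their values were seen. The alternatives were other arrays in the fit, array weights, mouse and replicate blocks, 1 value per mouse, re-scaling, the probe-set rule, a filter, no trend and leaving out each array. Scan dates were not used here.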

Additional observations from a re-analysis of the deposited data

Results flagged for a closer look

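In groups of 4 or 5 arrays 4 values stood far from the rest of their group, out of 63 checks of 21 genes, where chance gives about 1 in 20. Hpgd was at 11.46 on secondary L-GMP array 1, with 11.67 to 11.69 on the other L-GMP arrays. Ly86 was at 9.45 on primary L-GMP array 1, below 10.26 to 10.37. Marcks was at 6.90 on MLL-AF9 CMP array 3, below 8.33 to 8.81 on the other progenitor arrays. Cd55 was at 6.38 on knockout CMP array 3 without the fusion, below 6.74 to 6.78.

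The change with MLL-AF9 (control L-GMPs against MLL-AF9 CMPs) and without it (control GMPs against knockout CMPs) differed for 565 genes by the limma test of that difference with Benjamini-Hochberg adjustment. Leukaemia, culture and transplantation also set these groups apart, so the fusion's own part was not tested. Among the leading genes of that test and of the first comparison, the difference was positive for Hpgd (7.61), Fnbp1l (4.03), Sh2d1b1 (3.36), Igf2bp3 (3.05) and Olfm4 (2.67). It was negative for Prg2 (−3.98), Ak4 (−3.83), Ccr2 (−3.83), Met (−3.76), Prss34 (−3.74), Rab38 (−2.61) and Ctla2a (−2.04).

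Probe sets outside the gene comparison also changed. In a fit of all probe sets 18 of the 1321 with several gene symbols (1.36%) and 47 of the 11799 without a listed symbol (0.398%) passed, against 308 of 21640 with 1 symbol (1.42%). Those with several symbols included T cell receptor γ variable segments (−6.49 ± 0.28), and none of them can be named for a single gene here.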

How the results depend on the processing

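No named gene past the threshold changed sign under any alternative run. Values of genes that had not passed could change sign: Mcpt8 ran from −0.49 to 1.52 and Cpa3 from −1.5 to 0.05 without 1 array. The 493 genes of the first comparison (270 higher, 223 lower) became 3780 in a fit of all 23 arrays (1696 higher, 2084 lower), 907 with a minimum mean of 5, 236 with 1 value per mouse, 201 and 232 without both arrays of mouse 1 or 2, 170 without the 2 arrays least like their side (chosen after seeing the data) and 40 with high Xist as a covariate. It stayed within 1.5 times with array weights (523), median centring (665), quantile scaling (484), averaged probe sets (495), no trend (519), 2 groups (562) and without the 3 progenitor arrays with Y-linked signal (452, also chosen after seeing the data). The replicate number as a fixed block, which pairs arrays that share only a number on the L-GMP side, gave 128 genes, and the mouse as a random block 465. For CMPs against KSLs the mouse as a fixed block gave 0 genes, and for secondary against primary L-GMPs the replicate block gave 0.

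With all 23 arrays the count was 4486 against CMPs, 2282 against KSLs, 662 for CMPs against KSLs, 1536 for secondary against primary L-GMPs and 1302 for the difference with and without the fusion. Array weights gave 622 against CMPs and 5083 for control GMPs against knockout CMPs. Without 1 array the counts ran from 102 to 468 (first comparison), 62 to 355 (CMPs), 22 to 133 (KSLs), 1 to 11 (CMPs against KSLs), 0 to 22 (secondary against primary), 1023 to 1410 (GMPs) and 168 to 1401 (difference). With 4 arrays against 5 in 4 groups, 5 residual degrees of freedom limit what can pass, and values at the floor of 3 bound the size of a fall. Genotype, leukaemia, sorted stage and, in part, sex cannot be told apart here.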

Other observations

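Further genes kept their call in the first comparison without any 1 array and were chosen after their values were seen (limma, log2 change ± SE). These are examples, not all, of 57 higher and 27 lower genes. Higher in control L-GMPs were Igsf6 (4.39 ± 0.30), an immunoglobulin-domain protein of myeloid cells, Lbp (3.97 ± 0.21), the lipopolysaccharide-binding protein, and Aoah (3.48 ± 0.34), which inactivates lipopolysaccharide. Tfec (4.22 ± 0.37), a MiT-family factor of macrophages, and Nucb2 (4.47 ± 0.43), a calcium-binding precursor of nesfatin, rose as well. Enzymes among them were Sgms2 (4.02 ± 0.31), a sphingomyelin synthase, Gsr (3.72 ± 0.11), glutathione reductase, and Alas1 (3.55 ± 0.31), the first enzyme of haem synthesis. Lower were Tspan13 (−3.38 ± 0.33), a tetraspanin, Dpp4 (−3.26 ± 0.28), the CD26 peptidase, P2ry14 (−3.02 ± 0.26), a UDP-glucose receptor, and Zeb1 (−2.91 ± 0.27), a zinc-finger repressor.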
